A study of Homo sapiens with 2 samples.

Results

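The genes of the m6A methyltransferase complex were followed through the annotated lists of genes with ALKBH5 immunoprecipitation peaks in the promyelocytic leukaemia cell line HL-60, which is an established human line. The members were chosen by name: METTL3, METTL14, WTAP, VIRMA (KIAA1429 in the deposited tables), RBM15, RBM15B, ZC3H13 and METTL16. They are 8 of the 5851 gene symbols that the tables name, and METTL16 is counted among them although it works outside the complex. CBLL1, a further component of the complex, and METTL5, a separate methyltransferase, are given beside them because they are named nowhere in the tables.

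RNA was taken from 1 lysate fraction before and 1 after immunoprecipitation with an ALKBH5 antibody, so the series holds 2 libraries, 1 input and 1 IP. Per the series design text, the ALKBH5 antibody received 80% of the lysate, rabbit IgG 10% and the input another 10%; IgG data were not analysed here. The labels give ALKBH5 as the genotype of both libraries and name no treatment, time or knockdown. The title of each library names the opposite fraction from its library name, and the library names were followed. The tables hold no value per library, so no result below depends on how the libraries were grouped here, and IP was not compared with input. The lists rest on the authors' own peaks, and which library they took as IP could not be checked.

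N6-methyladenosine (m6A) is a methyl mark that a nuclear complex writes into messenger RNA while it is being made. METTL3 carries the catalytic site and METTL14 holds the RNA substrate against it. WTAP anchors this pair in nuclear speckles, and VIRMA, ZC3H13, CBLL1 and the paralogues RBM15 and RBM15B form the regulatory part that places the mark. METTL16 works outside the complex, on a small set of structured RNAs. ALKBH5, the protein precipitated here, removes the same mark.

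All 8 genes were listed, that is, named in at least 1 of the deposited tables. Of the 20056 protein-coding genes of RefSeq, 26.9% were listed. Each member was named in the GO table, which named 25.7% of protein-coding genes. Each was also in at least 1 term with a deposited corrected p under 0.05, as were 22.9% of protein-coding genes. The members were picked with their listing known, so 8 of 8 describes the choice and is not evidence about the complex; with CBLL1 and METTL5 added the count was 8 of 10. Each of the 8 carried its own RefSeq gene identifier in the tables, and no other symbol shared it. For METTL3, for example, the deposited identifier was 56339, and for VIRMA it was 25962. The listing of these genes therefore does not rest on a symbol filed under the identifier of another gene. Neither CBLL1 nor METTL5 appeared under its current symbol, an older symbol or its identifier. A gene is named only through a term that reached the authors' limit or through the family table, and a peak on CBLL1 or METTL5 outside such terms would not show.

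METTL3 lies on chromosome 14 from 21498138 to 21511340 (GRCh38.p14, as for all positions here) and was named in 11 GO terms. They placed it in the nucleoplasm, the nuclear speck, the nucleus and the cytoplasm, and in mRNA splicing, mRNA processing, mRNA binding and RNA metabolic process. METTL3 was alone among the 8 in cellular response to DNA damage stimulus, positive regulation of translation and regulation of hematopoietic stem cell differentiation. For the first of these the authors' deposited table gave 146 entries, a background of 248 genes and a corrected p-value of 0.0392. For the other 2 the authors' deposited table gave a corrected p-value of 0.797 each. Only terms that passed the authors' unadjusted limit are listed, so a role of METTL3 without a listed term leaves no trace here.

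METTL14, the partner of METTL3, lies on chromosome 4 from 118685392 to 118715430. It was named in 5 terms: nucleoplasm, nucleus, mRNA splicing, mRNA binding and RNA metabolic process. All 5 were also terms of METTL3, which gives the pair a Jaccard index of 0.45 (5 shared terms of 11 held by either). METTL14 was not an entry of nuclear speck, where METTL3 was.

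WTAP, the adaptor, lies on chromosome 6 from 159726693 to 159756319 and was named in 10 terms. Besides the nuclear terms these included RNA splicing, mRNA processing, regulation of alternative splicing and, alone among the 8, cell cycle (121 entries, background of 245, and a corrected p-value of 0.972 by the authors' deposited table). WTAP was also the 1 member present in the family table, in which symbols stand beside RNA-binding protein families and which named 6.14% of protein-coding genes. It was paired with all 4 families: CSD, PUF, RRM and the family that joins a CCHC zinc finger to RRM. Of all listed symbols 23.0% were in that table, and 62.2% of those were paired with all 4 families, so the pairing with every family is its common form. RBM15 and RBM15B, which do carry RRM domains, were absent from the table, while WTAP, which has none, was present. A pairing is thus no statement about the domains of the listed gene.

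VIRMA, the large scaffold of the regulatory part, lies on chromosome 8 from 94487689 to 94553469 and was named in 7 terms. ZC3H13, which tethers the regulatory part in the nucleus, lies on chromosome 13 from 45954465 to 46052746 and was named in 5. All 5 terms of ZC3H13 were also terms of VIRMA: nucleoplasm, RNA binding, nuclear speck, RNA splicing and mRNA processing. Their Jaccard index of 0.71 was the highest of the 28 pairs. VIRMA differed from ZC3H13 by its entries in cytosol and nuclear body, to which the authors' deposited table gave corrected p-values of 5.90e-11 and 0.305.

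RBM15 and RBM15B are RNA-binding paralogues that recruit the complex to its targets. RBM15 lies on chromosome 1 from 110339377 to 110346677 and was named in 11 terms, and RBM15B lies on chromosome 3 from 51391285 to 51397908 and was named in 10. They shared 7 of 14 terms (Jaccard index 0.50), among them RNA binding, viral process and regulation of alternative splicing. Viral process named these paralogues and no other member; the authors' deposited table gave it a corrected p-value of 7.46e-07. RBM15, known for its fusion with MKL1 in megakaryoblastic leukaemia, was alone in regulation of megakaryocyte differentiation and in placenta blood vessel development. The authors' deposited table gave these corrected p-values of 0.328 and 0.797, with 34 entries against a background of 45 for the megakaryocyte term. RBM15B was alone in nucleolus, nuclear envelope and mRNA export from nucleus. For nucleolus the authors' deposited table gave a corrected p-value of 1.15e-07. For the export term the authors' deposited table gave 80 entries, a background of 101 and a corrected p-value of 0.00245.

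METTL16, the enzyme that methylates U6 small nuclear RNA and hairpins of MAT2A mRNA, lies on chromosome 17 from 2415715 to 2511888. It was named in 3 terms, the fewest of the 8: RNA binding, nucleus and cytoplasm. It was the 1 member outside nucleoplasm, and it was in no process term. The number of terms reflects how a gene is annotated: the 5563 symbols of the GO table had a median of 4 terms, and 29.5% of them had fewer terms than METTL16 while 87.4% had fewer than METTL3 or RBM15.

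**Figure D1:**
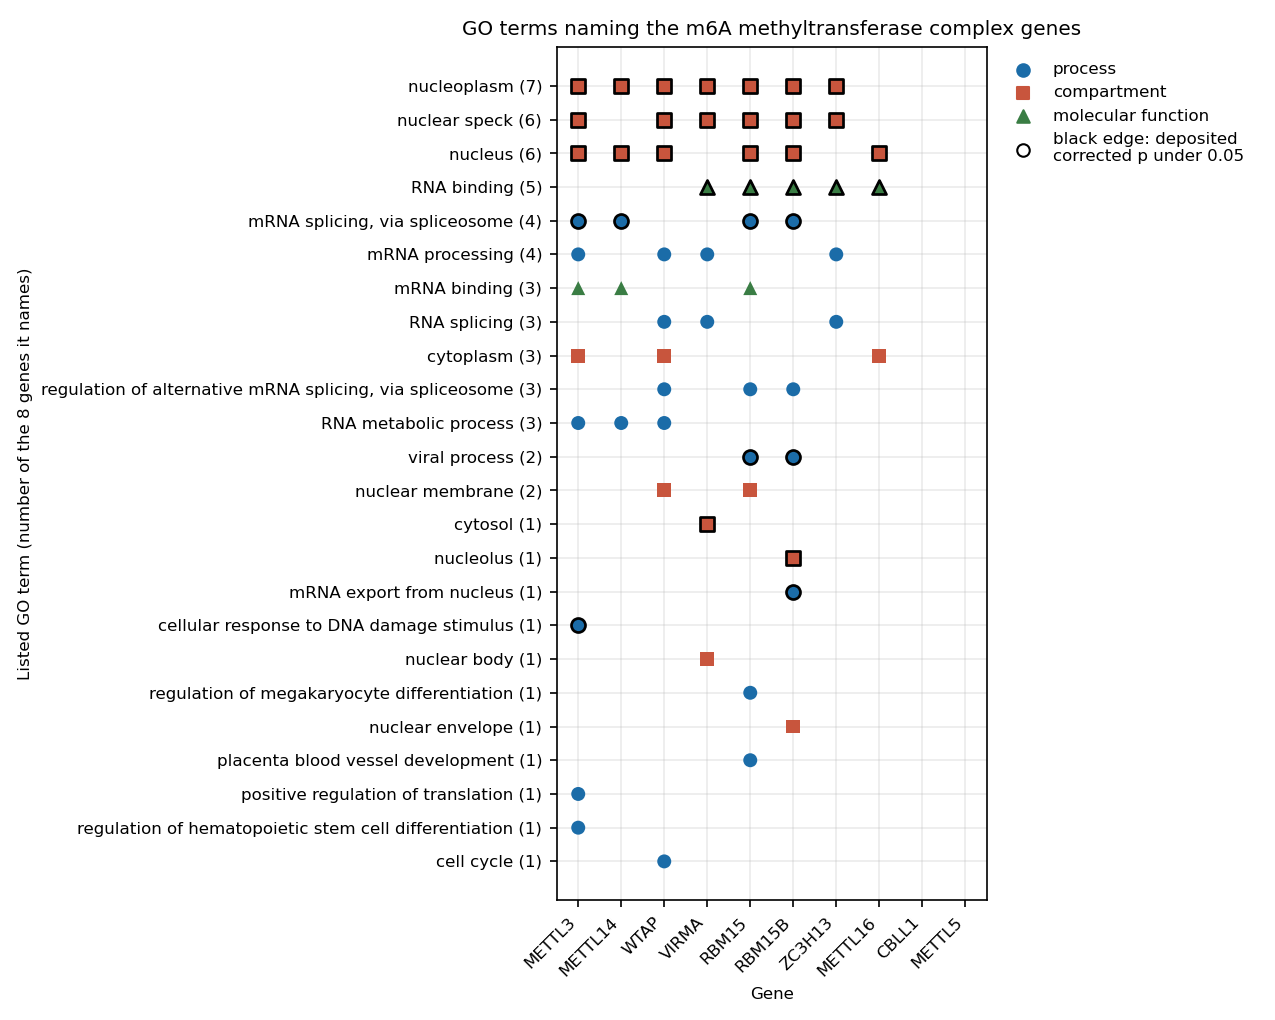
Listed GO terms (rows, with the number of the 8 genes each names) against genes (columns); a symbol marks an entry, its shape and colour the GO branch, and a black edge a deposited corrected p under 0.05. Nucleoplasm names 7 of the 8 genes, and CBLL1 and METTL5 have no entry.

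Together the 8 genes made 62 entries in 24 of the 311 listed GO terms (13 processes, 9 compartments and 2 molecular functions). Nucleoplasm named 7 of them, all but METTL16. Nuclear speck named 6, all but METTL14 and METTL16, and nucleus named 6, all but VIRMA and ZC3H13. RNA binding named 5: VIRMA, RBM15, RBM15B, ZC3H13 and METTL16. The 2 splicing and processing terms that named 4 members each divided them differently. The term mRNA splicing, via spliceosome held METTL3, METTL14, RBM15 and RBM15B, and mRNA processing held METTL3, WTAP, VIRMA and ZC3H13. The terms that name a member follow the annotation of that gene, not a second measurement of its transcript.

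Of the 24 terms, 10 (41.7%) were under a corrected p of 0.05 by the authors' deposited table, against 12.2% of all 311 GO terms. The members' annotation fixes which terms these are, and the broad terms among them hold many genes, so no test was made of that share. The smallest corrected p-values of the authors' deposited table were those of nucleoplasm (3.05e-20) and RNA binding (5.33e-16). The authors' deposited table gave 2.04e-06 for nuclear speck, 1.98e-04 for mRNA splicing and 0.00503 for nucleus. The other 14 lay between 0.161 and 0.972 in the authors' deposited table, with mRNA binding (0.161), nuclear membrane (0.18), RNA splicing (0.375) and mRNA processing (0.891) among them. Regulation of alternative splicing and RNA metabolic process had 0.507 each, and cytoplasm 0.451, in the authors' deposited table.

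No listed term was named for RNA methylation by this complex. A set of 6 listed GO terms had methyl in the name, and none held a member. They were histone methyltransferase complex, DNA methylation, methylated histone binding, tRNA methylation and 2 on H3-K36 demethylation, with corrected p-values from 0.505 to 0.972 in the authors' deposited table. The 38 listed KEGG pathways named 0 of the 8 genes, and 5.69% of protein-coding genes were named there.

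The share of listed genes within the members' own terms was set beside the share over all genes. The former is taken over the authors' background genes of a term, the latter over RefSeq protein-coding genes. With each identifier counted once, 782 of the 1366 background genes of RNA binding were listed (57.2%, exact Clopper-Pearson 95% interval 54.6 to 59.9%). In nuclear speck it was 244 of 400 (61.0%, 56.0 to 65.8%) and in nucleoplasm 1835 of 3630 (50.6%, 48.9 to 52.2%). In mRNA splicing 158 of 246 were listed (64.2%, 57.9 to 70.2%), and in mRNA processing 80 of 158 (50.6%, 42.6 to 58.7%). Over the 24 terms the share ran from 39.4% in cytoplasm to 73.3% in mRNA export from nucleus. Each of the 24 shares lay above the 26.9% over all protein-coding genes, which follows in part from the table holding only terms with a high share. Beside the other listed terms the shares were not high. By distinct identifier the median was 55.0% over the 24 terms and 62.5% over all 311 listed GO terms, a difference that was not tested. These intervals cover counting error only.

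**Figure D2:**
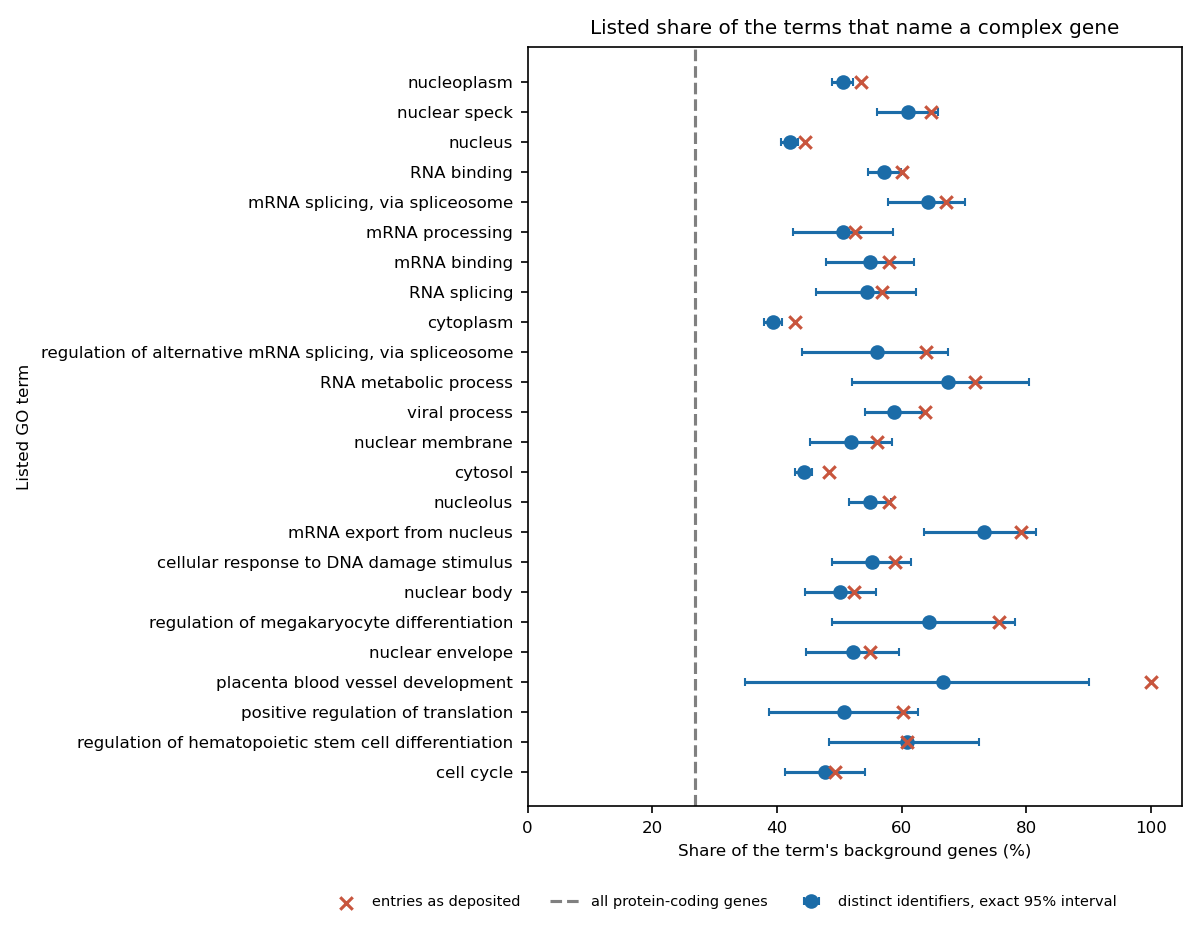
Share of each term's background genes that was listed (x axis, percent) for the 24 GO terms naming any of the members. Points are distinct identifiers with exact 95% intervals, crosses the entries as deposited, and the dashed line the 26.9% of all protein-coding genes. Each point lies to the right of the line, and the cross of placenta blood vessel development stands at 100% against 66.7% by identifier.

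Entries and genes differed little in most of these terms, with a median of 1.06 entries per identifier. Placenta blood vessel development, a term of RBM15, was the widest exception: its 12 entries stood on 8 identifiers of 12 genes, and 1 identifier carried 5 symbols. In cytosol, a term of VIRMA, and in cytoplasm, a term of METTL3, WTAP and METTL16, 1 identifier carried 51 symbols. Regulation of hematopoietic stem cell differentiation, a term of METTL3, had 42 entries on 42 identifiers.

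Listing varied with gene length, and the members spanned much of that range. Genomic length, introns included, was 6.62 kb for RBM15B and 7.30 kb for RBM15, the shortest, and 13.2 kb for METTL3. WTAP measured 29.6 kb, METTL14 30.04 kb and VIRMA 65.8 kb. METTL16 with 96.2 kb and ZC3H13 with 98.3 kb were the longest. Listed protein-coding genes had a median of 35.4 kb and unlisted ones of 20.1 kb. Protein-coding genes were put in 10 length bins of equal number. In the bin of RBM15 and RBM15B 20.8% were listed, and in that of METTL16 and ZC3H13 35.7%. CBLL1 (17.5 kb) and METTL5 (13.1 kb) lay within the members' range, in bins where 29.9% and 27.2% of genes were listed. Of the listed protein-coding genes, 8.70% were shorter than RBM15B and 9.58% shorter than RBM15. The part of length in the listing of single genes was not tested.

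**Figure D3:**
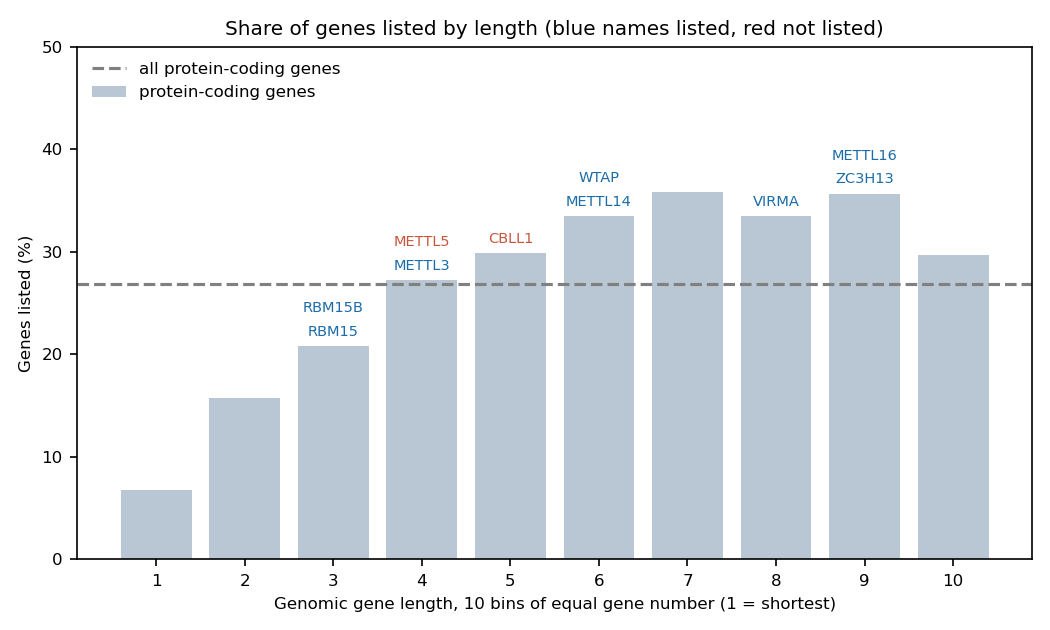
Percent of protein-coding genes listed (y axis) in 10 bins of genomic gene length (x axis, 1 the shortest), with the 8 members in blue and the unlisted CBLL1 and METTL5 in red above their bin; the dashed line is the share over all genes. RBM15 and RBM15B sit in bin 3, where 20.8% were listed.

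Every pair of members shared at least 1 listed GO term. The Jaccard index over the 28 pairs had a median of 0.23, with a range from 0.09 for METTL14 and VIRMA to 0.71 for VIRMA and ZC3H13. A member and a symbol that is not a member, with 3 or more terms, had a median of 0.08, with 8560 of 31296 such pairs sharing no term. The members were chosen for a shared function, and they had a median of 8.5 GO terms against 4 over all symbols of the GO table. The contrast of these indices thus describes the choice of genes and was not tested. The pairs with the highest index were VIRMA with ZC3H13, RBM15 with RBM15B, METTL3 with METTL14 and METTL3 with WTAP (0.40). No pair with METTL16 exceeded 0.18. The index compares annotations of listed genes within 311 terms, and broad terms such as nucleus weigh as much as narrow ones.

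**Figure D4:**
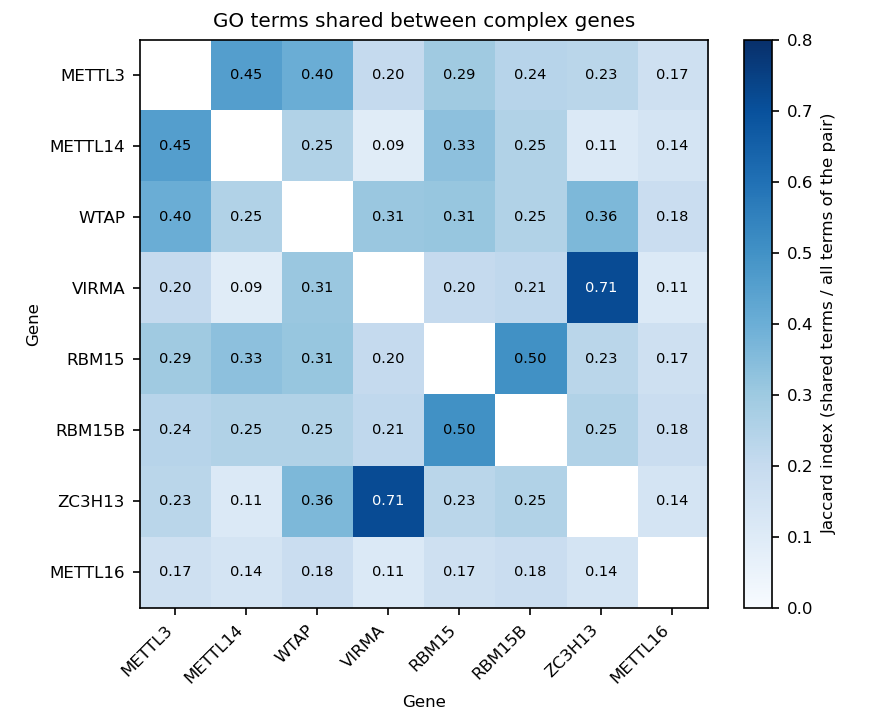
Jaccard index of the listed GO terms (colour, shared terms over all terms of the pair) for each pair of the 8 genes. VIRMA with ZC3H13 (0.71) and RBM15 with RBM15B (0.50) are the darkest cells, and no cell of the METTL16 row exceeds 0.18.

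Against all listed symbols with 3 or more terms, the annotation most like that of METTL3 was HNRNPA0, an RNA-binding protein of the hnRNP family (0.46), followed by METTL14 (0.45), WTAP (0.40), the U1 snRNP protein SNRNP70 (0.38) and HNRNPR (0.38). For METTL14 it was HNRNPA0 (0.63), then CSTF3, of the cleavage stimulation factor (0.57), and further down BUD13 and CWC25 (0.50 each, with 7 symbols tied). For WTAP it was the splicing regulator MBNL2 (0.55), then SRSF7 (0.44), SART3 (0.43), QKI and RBM25 (0.42 each, with 5 tied). The other 5 members were looked up after these values were seen. The nearest symbol was YTHDC1, the nuclear m6A reader, for RBM15 (0.54) and RBM15B (0.58). For VIRMA it was SUGP2, tied with ZC3H13 (0.71), and for ZC3H13 it was SREK1, tied with VIRMA (0.71). For METTL16, with its 3 terms, CPEB2 and DNAJC17 had the same terms (1).

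The other genes of the m6A pathway came from lists chosen with earlier results known. Both erasers, ALKBH5 and FTO, were listed. Of 15 readers, the proteins that bind the mark or respond to it, 13 were listed. They were the nuclear YTHDC1, the helicase YTHDC2, the cytoplasmic YTHDF1 and YTHDF2, the mRNA-stabilising IGF2BP1 and IGF2BP3, the nuclear HNRNPA2B1, HNRNPC and RBMX, the translation regulator FMR1, the translation initiation factor EIF3A, ELAVL1 and PRRC2A. YTHDF3 and IGF2BP2 were not listed. EIF3A was named in the KEGG table and in no GO term. FMR1 and ELAVL1 were the readers in the family table, each paired with 4 families as WTAP was.

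Of 25 other RNA methyltransferases and their partners, 16 were listed (64%). Among them were PCIF1, which methylates the cap-adjacent adenosine, ZCCHC4, which writes m6A into 28S ribosomal RNA, and the cap enzymes CMTR1, RNMT, TGS1 and MEPCE. The others were METTL1, TRMT6 and TRMT61A, which act on transfer RNA, the cytosine methyltransferases NSUN2, NSUN5 and NOP2, and FTSJ3, METTL2B, METTL15 and METTL17. METTL5, which methylates 18S ribosomal RNA, and TRMT112, the partner that stabilises it, were both unlisted, as were METTL2A, METTL4, METTL6, METTL8, CMTR2, DIMT1 and TRDMT1. None of the 25 was in the family table. A fixed list for the methyl donor S-adenosylmethionine held 9 genes, not all of them enzymes of its supply or recycling, and 6 were listed. Among them were MAT2A, the synthetase whose mRNA METTL16 methylates, the hydrolase AHCY, its relative AHCYL1, MTR and SHMT2. MAT1A, MAT2B and SHMT1 were not listed. These shares stand beside 26.9% of protein-coding genes and beside 57.2% of the RNA binding genes, and were not tested. The 26.9% was taken over all protein-coding genes, with no filter for RNA present in these cells or for annotation. RNA binding is itself a term listed for its high share.

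As a check of the label, 6 of 12 myeloid marker genes were listed (50%, exact 95% interval 21.1 to 78.9%, which includes the 26.9% of all protein-coding genes). These were MPO, PRTN3, LYZ, CD33, CEBPA and MYC; ELANE, AZU1, CTSG, CEBPE, MYB and SPI1 were not listed. Of 12 markers of other cell types 3 were listed (25%, near the 26.9% of all protein-coding genes): EPCAM, KRT8 and KRT18. The lists therefore do not settle the label. The tables give no level, so the abundance of these transcripts cannot be judged.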

How the data were processed

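ALKBH5-bound RNA was measured by RNA immunoprecipitation and sequencing, with stranded mRNA libraries per the labels' protocols. Per the submitters' processing notes, reads were placed on hg38. Not given in the sources used here are the aligner, the peak caller and the use of IgG. The 3 deposited tables cover the whole series. Per the file headers, the authors deposited the numbers of input entries and background genes of each term, the rich factor (a ratio), and a p-value before and after correction; the family table holds no number. Depth per library is unknown, and with 1 library of each kind there was no replicate check.

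From these, entries were split into identifier and symbol, and symbols were matched to RefSeq (GRCh38.p14) by current and then older symbols (373 of 5851 unmatched; 214 matched through an older one). A gene was called listed if any table named it. Shares carry exact Clopper-Pearson 95% intervals. The Jaccard index used symbols in 3 or more GO terms. No test was built. The named genes were the members, CBLL1, METTL5, the fixed lists (planned with up to 12 names each, here named more fully) and, for METTL3, METTL14 and WTAP, the 5 symbols of highest index (some names under this rule are not reported here); the named terms were those with methyl in the name, those holding 3 or more members, and the 3 of smallest p per member. Members and lists were chosen with earlier results of these data known. Python 3.11.15, pandas 2.3.3, scipy 1.17.1 and matplotlib 3.10.9 were used, and the counting steps were tested on simulated data.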

Additional observations from a re-analysis of the deposited data

How the results depend on the processing

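The count of 8 listed members was the same with the GO table alone, with only terms of a deposited corrected p under 0.05, and with genes matched by identifier (added after seeing the data). It was 7 with current symbols only, since VIRMA is filed as KIAA1429, 0 with the KEGG table alone and 1 with the family table alone. The listed share of protein-coding genes, 26.9%, was 20.8 to 35.7% in the members' length bins, also added after seeing the data. The share of symbols in the family table was 23.0% over all and 19.8% within the GO and KEGG symbols. The 10 member terms under 0.05 were 9 at 0.01 and 24 with a Benjamini-Hochberg adjustment over the listed terms alone, because only terms with p under 0.05 were listed. The median share of the 24 terms was 58.5% by entries and 55.0% by distinct identifier. The counts of listed erasers, readers, other methyltransferases and methyl donor genes stayed within 1.5 times under each alternative run. No paired analysis was possible because the tables hold no value per library. No replicate could be left out for the same reason.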
